A study of Homo sapiens with 6 samples.

Results

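The promoters of 9 genes for subunits of mitochondrial complex I were examined for H3K4me3 and H3K27me3 in the human lung cancer line H1299, a non-small cell line in long use. The genes were NDUFS1, NDUFS3, NDUFS4, NDUFS7, NDUFS8, NDUFV1, NDUFV2, NDUFA9 and NDUFA10. The members are the called intervals within 5 kb of the transcription start site (TSS) of each gene on hg19. They numbered 55 of the 275570 intervals in the 4 lists. Cells were treated with 5 mM metformin or left untreated, and chromatin was cut with micrococcal nuclease before precipitation of each mark. How long the cells were treated is not given in the sources used here. There was 1 metformin and 1 control library for each mark, so no value below has a replicate error and no test between conditions could be made. The 2 input libraries were not analysed here.

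The peak lists hold no read counts, so sequencing depth is unknown, and depth alone can lengthen a list. H3K4me3 was called as 53454 intervals in the metformin library and 50585 in the control library, and H3K27me3 as 85952 and 85579. Over the whole genome the metformin list covered 1.12 times the H3K4me3 length of the control list and 1.09 times the H3K27me3 length. Each interval carries a deposited peak value, read here as a −log10 q. It is used to describe and rank intervals within their own list. Fixed minimum values, given below, are also applied alike to the metformin and control lists. For H3K4me3 the median value was 6.31 in the metformin list and 5.73 in the control list. The same minimum therefore need not be equally strict in both lists, and results that use one depend on this.

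Complex I, or NADH:ubiquinone oxidoreductase, takes electrons from NADH, passes them along a chain of iron-sulfur clusters to ubiquinone, and pumps protons across the inner mitochondrial membrane. Its matrix arm has an N module, which oxidises NADH, and a Q module, which reduces ubiquinone, and the membrane arm carries the proton pumps. Metformin is known as a weak inhibitor of this enzyme. The subunits studied here are encoded in the nucleus and are needed in nearly every cell type. H3K4me3 marks promoters in use, usually with a nucleosome-poor stretch at the start site, and H3K27me3 is laid down by Polycomb at silenced genes.

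The start sites lie on 6 chromosomes. In the N module, NDUFV1 (chr11:67374323, plus strand) binds NADH and the flavin, NDUFV2 (chr18:9102628, plus) and NDUFS1 (chr2:207024243, minus) carry iron-sulfur clusters, and NDUFS4 (chr5:52856464, plus) is an accessory subunit that is lost in forms of Leigh syndrome. In the Q module, NDUFS3 (chr11:47600562, plus), NDUFS7 (chr19:1383526, plus) and NDUFS8 (chr11:67798084, plus) are core subunits, and NDUFS7 and NDUFS8 hold iron-sulfur clusters next to the quinone site. NDUFA9 (chr12:4758264, plus) is an accessory subunit where the matrix and membrane arms meet, and NDUFA10 (chr2:240964819, minus) is an accessory subunit of the membrane arm. NDUFV1 and NDUFS8 are 424 kb apart.

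RefSeq promoter sequences on GRCh38.p14, from 250 bases before to 50 after each gene's start, were found for all 9 genes. Their positions were not matched to the hg19 lists, and RefSeq's start need not be the start site used for the intervals. The 5 promoters below belong to the genes on which the results turn. NDUFS1 is shown because an H3K4me3 gap at its start was closed in the metformin list, and NDUFS4 as the most AT-rich. NDUFS8 had the largest ratio of H3K4me3 length, NDUFA9 the highest peak values, and NDUFA10 was the only gene with H3K27me3. Capitals mark matches on either strand to the NRF1 motif, to the ETS motif CCGGAAGT or its first 6 letters, to the SP1 motif GGGCGG, the YY1 core AAGATGG, the cyclic AMP response element TGACGTCA and the box CCAAT. Every match to the full ETS motif is also a match to the short form. The short ETS form and the CCAAT box were added after the sequences had been seen.
NDUFS1: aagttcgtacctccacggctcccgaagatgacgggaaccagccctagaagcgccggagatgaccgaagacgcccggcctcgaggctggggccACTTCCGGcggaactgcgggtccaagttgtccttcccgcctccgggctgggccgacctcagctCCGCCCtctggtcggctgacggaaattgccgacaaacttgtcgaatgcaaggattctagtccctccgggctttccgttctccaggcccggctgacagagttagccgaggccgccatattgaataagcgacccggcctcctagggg
NDUFS4: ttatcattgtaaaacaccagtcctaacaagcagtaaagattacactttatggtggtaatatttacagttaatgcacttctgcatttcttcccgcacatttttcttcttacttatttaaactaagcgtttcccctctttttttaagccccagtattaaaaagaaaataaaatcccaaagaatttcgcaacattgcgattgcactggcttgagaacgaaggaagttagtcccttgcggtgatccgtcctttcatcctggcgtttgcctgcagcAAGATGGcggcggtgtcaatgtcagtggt
NDUFS8: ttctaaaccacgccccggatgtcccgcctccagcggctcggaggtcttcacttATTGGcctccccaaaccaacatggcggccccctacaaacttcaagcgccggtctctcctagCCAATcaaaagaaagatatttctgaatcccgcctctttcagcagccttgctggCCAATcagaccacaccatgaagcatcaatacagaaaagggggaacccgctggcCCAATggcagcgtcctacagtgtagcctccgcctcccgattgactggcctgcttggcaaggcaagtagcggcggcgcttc
NDUFA9: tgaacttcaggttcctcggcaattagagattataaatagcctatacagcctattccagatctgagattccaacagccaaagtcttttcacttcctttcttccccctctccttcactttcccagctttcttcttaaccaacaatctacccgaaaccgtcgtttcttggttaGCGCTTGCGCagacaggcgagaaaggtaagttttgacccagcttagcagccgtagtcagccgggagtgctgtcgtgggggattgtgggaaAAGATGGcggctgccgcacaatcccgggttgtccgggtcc
NDUFA10: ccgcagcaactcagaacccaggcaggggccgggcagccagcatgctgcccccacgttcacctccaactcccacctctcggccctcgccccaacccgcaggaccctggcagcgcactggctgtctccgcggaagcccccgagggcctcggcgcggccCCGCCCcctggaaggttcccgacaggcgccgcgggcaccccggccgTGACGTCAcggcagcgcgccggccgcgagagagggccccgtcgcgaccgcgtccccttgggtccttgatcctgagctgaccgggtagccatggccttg

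The promoters differed widely in base composition. GC content ran from 40.3% (NDUFS4) and 50.7% (NDUFA9) to 74.3% (NDUFA10) and 74.7% (NDUFV2), with a median of 63.7%, against 58.3% over 27305 promoters of the table. CpG dinucleotides numbered 10 in NDUFS4 and 35 in NDUFV2, with a median of 28 against 14. No motif was common to all 9. NRF1, the factor named for nuclear control of respiratory genes, had a match in NDUFA9 alone, and 6.28% of all promoters hold one. The YY1 core was present in NDUFS4, NDUFS7 and NDUFA9, in each case after the start, and 6.06% of all promoters hold it. The SP1 motif was present in 5 of 9 (44.6% of all promoters) and the short ETS form in 3 of 9 (17.6%). The full ETS motif was in NDUFS1 alone (4.44%), the cyclic AMP response element in NDUFA10 alone (1.98%) and the CCAAT box in NDUFS8 alone (35.7%), where it occurred 4 times. A match describes letters only and is not a binding site. In the same gene table a gene on the opposite strand starts within 1 kb of NDUFS1 (EEF1B2, a translation elongation factor subunit), NDUFS3 (KBTBD4, a ubiquitin ligase adaptor), NDUFS8 (GLTC1, a long non-coding RNA) and NDUFV1 (NDUFV1-DT, a divergent transcript). An interval at these starts cannot be assigned to either gene of the pair.

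H3K4me3 was called within 5 kb of all 9 start sites in both libraries. The share of all start sites with H3K4me3 this near was not measured. The mark was called as 27 intervals with 101 sub-peaks in metformin-treated cells and as 26 intervals with 93 sub-peaks in control cells. H3K27me3 was called near NDUFA10 alone, as 1 interval in each library. The highest H3K4me3 value near each gene lay between the 89.2 and 99.5 percentiles of the metformin list and between the 79.1 and 99.4 percentiles of the control list. These percentiles set the highest interval near a gene against single intervals, which favours high ranks. The median of these values over the 9 genes was 44.8 with metformin and 37.3 in control. Over 10142 other H3K4me3 regions, with a value of 20 or more in both lists, it was 41.0 with metformin and 33.6 in control. There only intervals of the region itself counted, so these medians are only roughly comparable. The map of called intervals places both marks around each start.

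**Figure D1:**
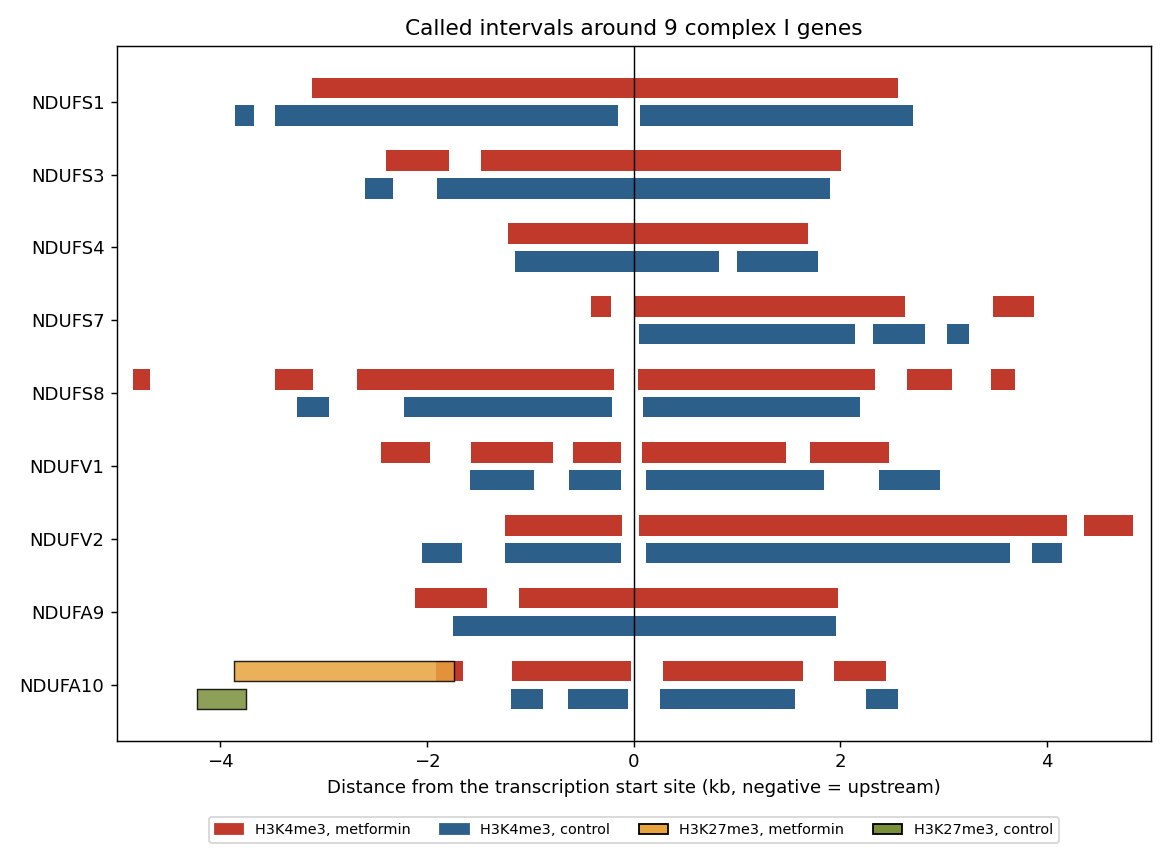
Intervals called within 5 kb of the 9 start sites, drawn in the direction of transcription (x axis, kb), with the metformin list above the control list for each gene; filled bars are H3K4me3 and outlined bars H3K27me3. H3K4me3 flanks or spans each start in both lists, except at NDUFS7 in control, where it lies downstream alone, and H3K27me3 appears only upstream of NDUFA10.

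The N module genes carried H3K4me3 on both sides of the start. At NDUFV1 the interval just downstream reached from 84 to 1476 bp past the start in metformin-treated cells and from 117 to 1845 bp in control cells, with peak values of 42.4 in the metformin list and 22.3 in the control list. Upstream of it the metformin list held 3 short intervals and the control list 2. NDUFV1 was thus marked by several short intervals in both lists, 5 with metformin and 4 in control, the longest of 1393 bp with metformin and 1729 bp in control.

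NDUFV2 had the longest downstream domain of the 9 genes. It ran from 49 to 4190 bp past the start in metformin-treated cells (4142 bp, 13 sub-peaks, value 62.3) and from 116 to 3640 bp in control cells (3525 bp, 10 sub-peaks, value 58.0). A second interval, from 1247 to 119 bp before the start with metformin and from 1243 to 126 bp in control, had almost the same edges in the lists. A short control interval (389 bp, value 3.09) about 2 kb upstream had no metformin partner.

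NDUFS1 was spanned by a single interval of 5677 bp in the metformin list, from 3115 bp upstream to 2561 bp downstream, with 17 sub-peaks and a value of 49.8. In the control list the same stretch held intervals of 3324 bp upstream and 2640 bp downstream, with values of 33.1 and 37.3, separated by 213 bp that contained the start. The outer edges did not move outwards: the control intervals reached 3475 bp upstream and 2701 bp downstream, both farther than in the metformin list. The single long interval therefore covered less sequence than the control intervals together, and a further 179 bp control interval (value 1.78) lay beyond them.

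NDUFS4 had the least H3K4me3 of the 9 genes in the metformin list. The interval over its start was 2904 bp long with metformin (1218 bp upstream to 1685 bp downstream, value 43.3) and 1974 bp in control (1153 bp upstream to 820 bp downstream, value 33.6). The control list held a second interval from 994 to 1781 bp downstream, so most of the longer metformin interval was also marked in control. It extended slightly farther upstream and covered a 173 bp gap between the control intervals.

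NDUFS3 of the Q module and NDUFA9, where the arms meet, were spanned by a long interval in both lists. At NDUFS3 it was 3487 bp with metformin (value 49.4) and 3804 bp in control (value 40.8). At NDUFA9 it was 3092 bp with metformin and 3703 bp in control. The metformin list also held a separate upstream interval, of 616 bp at NDUFS3 and 695 bp at NDUFA9. The control list held one of 267 bp (value 3.07) at NDUFS3 and none at NDUFA9, and the covered lengths of the lists differed by only 32 and 84 bp. NDUFA9 had the highest peak values of the 9 genes, 85.5 in the metformin list (99.5 percentile) and 72.0 in the control list (99.4 percentile).

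Around the start site used here, which need not be RefSeq's, NDUFS7 was the most one-sided gene. Its main interval began 16 bp past the start and ended at 2628 bp with metformin (2613 bp, value 44.8), and ran from 52 to 2141 bp in control (2090 bp, value 21.1). Upstream of the start the control list held nothing within 5 kb, and the metformin list held a single interval of 199 bp with a value of 7.37. That control value was the lowest of the 9 genes, at the 79.1 percentile of its list. The metformin value was at the 91.9 percentile of the metformin list.

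NDUFS8 was flanked by long intervals on both sides. With metformin they were 2489 bp upstream (value 19.9) and 2301 bp downstream (value 41.7), and in control 2014 bp (value 17.8) and 2092 bp (value 33.1). The metformin list added short intervals farther out, 3 of which (164, 432 and 231 bp, values of 2.71 to 4.52) had no control partner. NDUFS8 had 6 intervals with metformin and 3 in control. In the gene table ALDH3B1, a protein-coding gene on the same strand, lies within 5 kb of NDUFS8. The intervals farther out cannot be assigned to NDUFS8 alone.

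NDUFA10, in the membrane arm, had the least H3K4me3 length of the 9 genes in the control list. The upstream flank was an interval of 1153 bp with metformin (value 38.6) and of 588 bp in control (value 30.6). The control list held a second interval of 302 bp beyond a 242 bp gap. The downstream flank was 1362 bp with metformin (value 39.5) and 1305 bp in control (value 39.6).

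**Figure D2:**
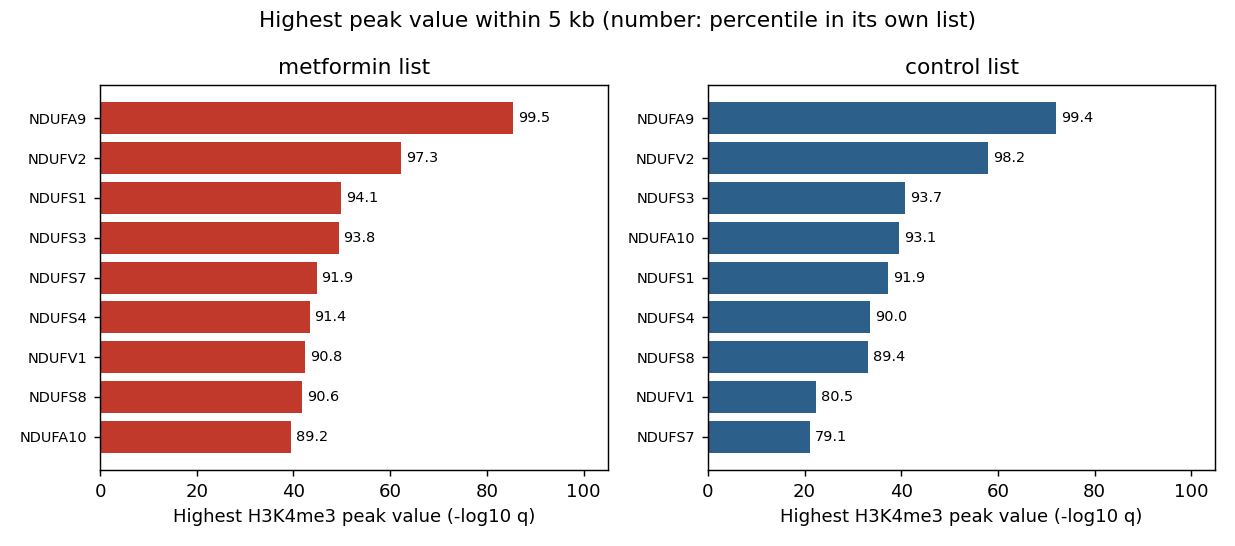
Highest H3K4me3 peak value (−log10 q, x axis) within 5 kb of each start in the metformin list (left) and the control list (right), ordered within each list, with the percentile of that value among all intervals of its list. NDUFA9 and NDUFV2 lead both lists, and NDUFS7 and NDUFV1 are the lowest in the control list.

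Several starts lay in a short uncovered stretch. Its share over all promoters was not measured, and whether a start is covered depends on the start site used. The start lay outside H3K4me3 in 5 of 9 genes with metformin (NDUFS7, NDUFS8, NDUFV1, NDUFV2 and NDUFA10) and in 6 of 9 in control (the same genes and NDUFS1). At NDUFS7 in control this was no short gap, since there was no interval upstream within 5 kb, which leaves 5 starts in a short gap in each list. NDUFS3, NDUFS4 and NDUFA9 were covered at the start in both. The smallest gap that either list contains is 165 bp, so shorter gaps would not appear. At NDUFV2 the gap was 167 bp with metformin, close to that limit, and 241 bp in control. It was 226 bp with metformin and 301 bp in control at NDUFS8, and 205 bp with metformin and 237 bp in control at NDUFV1. At NDUFA10 it was 304 bp in both, but it lay from 27 bp before to 278 bp past the start with metformin and from 53 bp before to 252 bp past it in control. Of the 4 genes with such a gap in both lists, 3 had the narrower one with metformin and 1 had equal gaps. Genome-wide, among 4281 gaps of at most 500 bp matched between the lists and next to an interval of value 20 or more, 65.0% were narrower with metformin, so the share among these genes is near the background.

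Gaps of this kind away from the start also opened and closed in both directions. The counts that follow include the gaps at the start. Counted as in the genome-wide set (at most 500 bp, next to an interval of value 20 or more), the metformin list had 12 gaps within 5 kb of the 9 starts, of which 3 were closed in the control list, and the control list had 12, of which 6 were closed in the metformin list. Across the genome, under the same limits, 23.9% of 12095 metformin gaps were closed in control and 37.5% of 9820 control gaps were closed with metformin. At the start itself, 0 of 5 metformin gaps and 1 of 5 control gaps, that of NDUFS1, were closed in the other list. The genes covered at the start in both lists had RefSeq promoter GC contents of 40.3 to 62.7% (3 genes), and those with a gap had 57.3 to 74.7% (6 genes). The ranges overlap.

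The 9 genes together had 38.6 kb of H3K4me3 within 5 kb of their starts with metformin and 35.2 kb in control, a ratio of 1.10. Covered length per gene was between 2904 bp (NDUFS4) and 5985 bp (NDUFS8) with metformin, with a median of 3898 bp, and between 2511 bp (NDUFA10) and 6143 bp (NDUFS1) in control, with a median of 3703 bp. As a comparison, 10142 other H3K4me3 regions with a value of 20 or more in both lists were measured in the same way around their centres, where the ratio of summed length was 1.06. Those regions had medians of 4109 bp with metformin and 3885 bp in control, close to those of the complex I genes.

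Covered length was larger with metformin in 8 of 9 genes and smaller in NDUFS1. Among the comparison regions 62.1% were larger with metformin. At NDUFS3, NDUFA9 and NDUFS4 the difference was 32, 84 and 142 bp, and each of these turned round under at least 1 other setting. NDUFV2, with a difference of 413 bp, also turned round within 2 kb (0.923). The ratio of metformin to control was 1.36 at NDUFS8 (5985 bp with metformin and 4414 bp in control) and 1.31 at NDUFA10 (3286 bp with metformin and 2511 bp in control). These 2 genes were the only ones at 1.2 or more, and 22.4% of comparison regions reached that ratio. Which genes passed depended on the setting: with intervals of value 5 or more they were NDUFA10 (1.60), NDUFS4 (1.47) and NDUFS7 (1.35), and with intervals within 1 kb merged NDUFS8 (1.35) and NDUFS7 (1.34). No gene was at 0.8 or less, as 4.42% of comparison regions were. The other ratios were 1.14 at NDUFS7, 1.13 at NDUFV1, 1.08 at NDUFV2, 1.05 at NDUFS4, 1.02 at NDUFA9, 1.01 at NDUFS3 and 0.92 at NDUFS1. The median ratio was 1.08 for the 9 genes and 1.05 for the comparison regions, whose middle 50% lay between 0.946 and 1.18. The counts past either ratio are near the background.

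**Figure D3:**
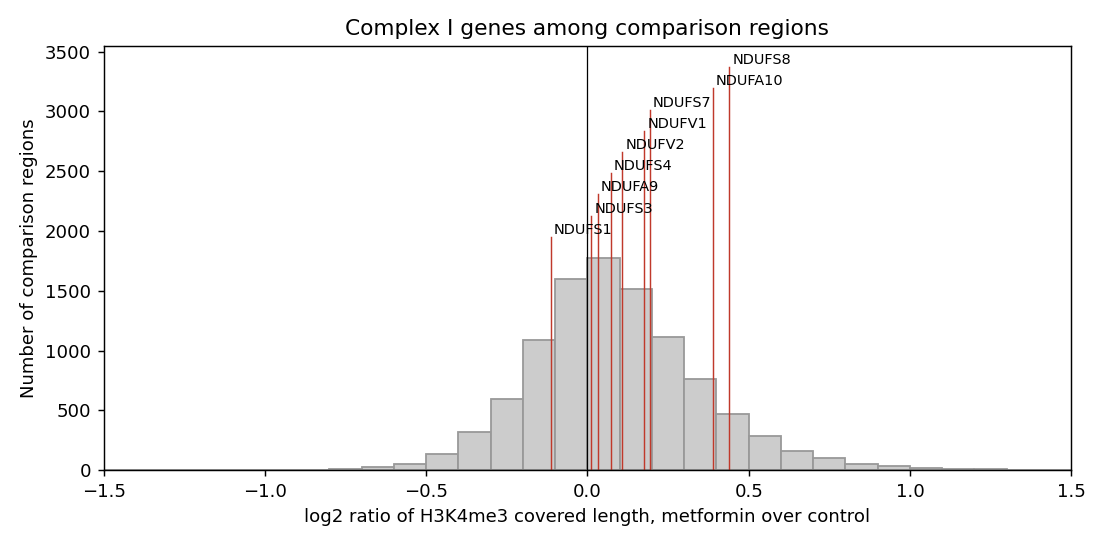
Distribution of the log2 ratio of H3K4me3 covered length, metformin over control, in 10142 comparison regions (grey bars, number of regions), with the 9 complex I genes as red lines. NDUFS8 and NDUFA10 lie in the right shoulder, NDUFS1 left of 0, and the other genes near the peak of the distribution.

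The ratio at NDUFS8 was 1.02 within 2 kb of the start and 1.09 with intervals of value 5 or more. At NDUFA10 it was 1.16 with intervals within 1 kb merged. Over the 5 kb upstream of the starts, the summed length was 15.7 kb with metformin and 14.4 kb in control, and on the downstream side it was 22.8 kb with metformin and 20.8 kb in control. In each list 6 of 9 genes had more H3K4me3 downstream than upstream, and the share over all genes was not measured. At NDUFV2 the sides went opposite ways: 1129 bp with metformin and 1507 bp in control upstream, and 4613 bp with metformin and 3822 bp in control downstream.

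**Figure D4:**
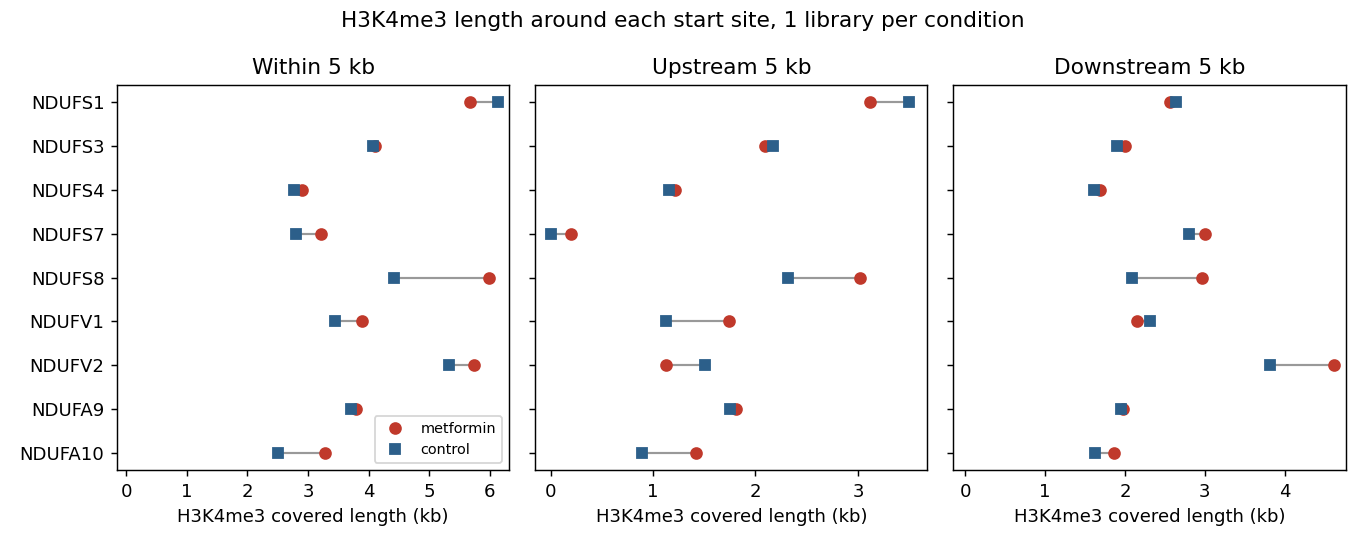
H3K4me3 covered length (kb) within 5 kb of each start, and on its upstream and downstream side, in the metformin list (red circles) and the control list (blue squares). Each point is 1 library; NDUFS8 had more with metformin on both sides, NDUFA10 mainly upstream, and NDUFS7 has almost no upstream H3K4me3 in either list.

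The surrounding megabases differed by unequal amounts. NDUFS7 lies between 1 and 2 Mb of chromosome 19, where H3K4me3 covered 165 kb with metformin and 122 kb in control (1.35 times), while the gene itself had a ratio of 1.14. NDUFV1 and NDUFS8 share the bin from 67 to 68 Mb of chromosome 11, with 107 kb with metformin and 83.3 kb in control (1.29 times). Around NDUFS1 and NDUFV2 the megabase ratios were 0.972 and 0.990. The part of the surrounding megabase in the ratio of any gene was not tested.

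H3K4me3 intervals of 4 kb or more, called broad domains, were found at NDUFS1 (5677 bp) and NDUFV2 (4142 bp) in the metformin list and at none of the 9 genes in the control list. Of the comparison regions, 14.8% had such an interval with metformin and 11.7% in control. There only intervals of the region itself counted, and at the genes any interval within 5 kb of the start. The shares are therefore only roughly comparable, and 2 of 9 and 0 of 9 are not read as a difference from them. Both sites were marked in control cells as well, by intervals of up to 3324 bp and 3525 bp.

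Of the 27 metformin intervals near the 9 genes, 19 were overlapped by a control interval, against 67.3% in the whole list. Of the 26 control intervals, 23 were overlapped by a metformin interval, against 77.3%. The unshared intervals were short in both lists. The 8 metformin intervals had 164 to 474 bp and values of 2.71 to 7.37, and the 3 control intervals 179 to 389 bp and values of 1.78 to 3.09. The shared intervals overlapped these ranges. They had 368 to 5677 bp and values of 2.28 to 85.5 with metformin, and 267 to 3804 bp and values of 1.58 to 72.0 in control. All intervals with a value above 7.37 had a partner in the other list.

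H3K27me3 was rare at these promoters. In 8 of 9 genes neither list had an H3K27me3 interval within 5 kb. At NDUFA10 the metformin interval was chr2:240966561-240968685 (2125 bp, value 1.41), which lies 1.74 to 3.87 kb upstream of the start, and the control interval was chr2:240968573-240969048 (476 bp, value 1.62), 3.75 to 4.23 kb upstream. They shared 113 bp. The metformin interval lay over 172 bp of a short H3K4me3 interval (264 bp, value 3.64) that the control list did not have, whereas the control interval was 2.57 kb from the nearest control H3K4me3. The values lay at the 37.1 percentile of the metformin list and the 62.8 percentile of the control list. Among the comparison regions 6.24% had H3K27me3 within 5 kb with metformin and 5.13% in control, so 1 of 9 in each list is near the background. The neighbouring gene in the table on that side is OR6B2, an olfactory receptor gene.

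Farther out, the genes differed in their H3K27me3 surroundings. The nearest interval was at a median of 43.0 kb with metformin and 49.6 kb in control, against 74.5 kb with metformin and 82.6 kb in control for the comparison regions. NDUFS3, NDUFS7 and NDUFV2 had none within 100 kb in either list, and at NDUFS3 the nearest was 602 kb away with metformin and 610 kb in control. NDUFA9 and NDUFA10 were the most closely surrounded. Within 100 kb of NDUFA9, H3K27me3 covered 39.7 kb in 20 intervals with metformin and 31.5 kb in 22 intervals in control, and the nearest lay 9.81 kb upstream with metformin and 10.3 kb in control. The megabase around NDUFA9, from 4 to 5 Mb of chromosome 12, held 538 kb of H3K27me3 with metformin and 507 kb in control. Within 100 kb of NDUFA10 it covered 23.9 kb in 22 intervals with metformin and 32.0 kb in 24 intervals in control. At NDUFS8 it covered 12.1 kb with metformin and 5.67 kb in control, and at NDUFV1 9.39 kb with metformin and 7.58 kb in control. At NDUFV1 a control interval of 431 bp (value 1.33) lay 6.39 kb upstream, where the nearest metformin interval was at 26.7 kb. At NDUFS1 the metformin list held 1 interval of 859 bp within 100 kb and the control list none.

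**Figure D5:**
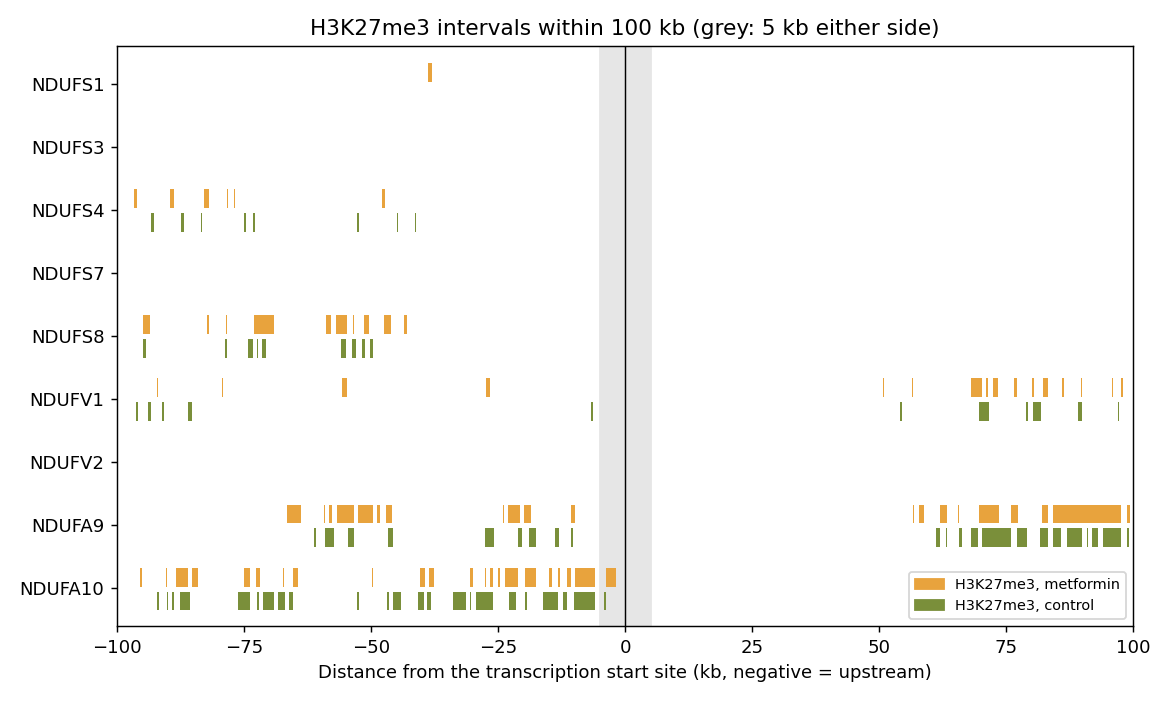
H3K27me3 intervals within 100 kb of the 9 start sites, in the direction of transcription (x axis, kb), with the metformin list above the control list for each gene and 5 kb on either side of the start shaded grey. NDUFS4, NDUFS8 and NDUFA10 have H3K27me3 only on the upstream side in both lists, and NDUFS1 has an upstream interval with metformin alone. NDUFA9 and NDUFV1 have it on both sides, and NDUFS3, NDUFS7 and NDUFV2 have none in this window.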

How the data were processed

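Each of the 4 peak lists comes from a single ChIP library, per the labels. Reads went through Trimmomatic 0.38, Bowtie and MACS2 on hg19 (GRCh37), per the submitters' processing notes. Program options and the choice of background are not given in the sources. The deposited value of a line was taken to be a −log10 q, since the smallest lie just above the −log10 of q = 0.05 for H3K4me3 and of q = 0.1 for H3K27me3. Lines with the same interval were joined and carry their highest value. Positions are 1-based on hg19, and the start sites are those of the rule. An interval counted as shared with 1 bp of overlap. Comparison regions are merged H3K4me3 regions of both lists with a value of 20 or more in each, away from the 9 genes. Each was measured around its centre rather than a start site, except that peak values and longest intervals were taken within the region itself.

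With 1 library per group no test was made. All 9 genes are named by rule and all are reported, but the promoter sequences shown were picked by results or base composition. The genes and the comparisons were chosen with earlier results of these data known, and the analyses of gaps, broad domains, shared intervals, base composition and megabase bins were added after the data were seen. Other complex I genes and marker genes of the cell line were not analysed here, because the RefSeq gene table is on GRCh38.p14 and positions were not converted. It gave names, strands and neighbours. Alternatives were windows of 2 and 10 kb, a value of 5 or more, equal list lengths, merging within 1 kb, a distance of 500 bp to the start and 50% of an interval inside the window. Code was tested on simulated data and against bedtools 2.31.1. Python 3.11.15, pandas 2.3.3, numpy 2.4.6 and matplotlib 3.10.9 were used.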

Additional observations from a re-analysis of the deposited data

How the results depend on the processing

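No paired analysis was possible because no group has a second library, and for the same reason no replicate was left out. The number of genes covered at the start (4 with metformin, 3 in control) became 9 with metformin and 8 in control with intervals within 1 kb merged, and 9 in each list when an interval within 500 bp was enough, so it depends on the exact start site. Genes with H3K27me3 (1 in each list) numbered 0 in each list at a value of 5 or more, 2 in each within 10 kb, and 0 in control within 2 kb. Within 10 kb the gene added to NDUFA10 differed between the lists: NDUFA9 with metformin (9.81 kb) and NDUFV1 in control (6.39 kb). Genes at a ratio of 1.2 or more (2, NDUFS8 and NDUFA10) numbered 1 within 2 kb and 3 at a value of 5 or more (NDUFA10 1.60, NDUFS4 1.47 and NDUFS7 1.35). With merging they were NDUFS8 (1.35) and NDUFS7 (1.34), and NDUFA10 was at 1.16. The summed ratio of H3K4me3 length (1.10) stayed between 1.04 (2 kb) and 1.12 (10 kb) in the 5 alternatives run. Ratios near 1 changed side in 5 genes: NDUFS1 had 1.06 within 2 kb, NDUFS4 0.989 with merging, NDUFV2 0.923 within 2 kb, NDUFA9 0.835 at a value of 5 or more and 0.992 within 2 kb, and NDUFS3 0.917 at 5 or more, 0.980 with merging, 0.971 within 2 kb and 0.956 within 10 kb. NDUFS7, NDUFS8, NDUFV1 and NDUFA10 were above 1 in all of the alternatives run. The count of 8 of 9 genes with more H3K4me3 therefore rests in part on the differences of 32, 84 and 142 bp at NDUFS3, NDUFA9 and NDUFS4. At NDUFV2, also among the 8, the larger length with metformin did not hold within 2 kb. Equal list lengths changed none of these values. The lists differ little in length, with 53454 and 50585 intervals for H3K4me3 and 85952 and 85579 for H3K27me3. This setting could therefore change little and is no check on sequencing depth. The cause of each change was not tested.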
